A study of Homo sapiens with 4 samples.

Results

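The transcripts examined here belong to 10 genes of interleukin signalling: the cytokine genes *IL24*, *IL23A*, *IL12A*, *IL15* and *IL32*, and the receptor genes *IL7R*, *IL15RA*, *IL4R*, *IL13RA1* and *IL13RA2*. They were found on the arrays by gene symbol, and 11 of the 33096 gene probes carried one of these symbols, 2 of them for *IL32* and 1 for each of the others. The genes were selected on the difference between *SOX2* knockdown and mock on these same arrays, known from an earlier analysis, so for them that difference is described without a test.

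The arrays measured total RNA of LN229, an established human glioblastoma cell line, after transient transfection with small interfering RNA (siRNA). The mock knockdown cells received control siRNA, and the *SOX2* knockdown cells received siRNA against *SOX2*, a transcription factor of neural stem cells that is active again in glioblastoma. Each group has 2 arrays, described in the methods of the study as biological replicates from the transfection onward. Each group is therefore a pool of transfected cells of 1 line, no untransfected cells were measured here, and the labels do not say which siRNA against *SOX2* each culture received.

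Interleukins are secreted proteins, and many of them bind receptors built from several chains that signal through JAK kinases and STAT transcription factors. Chains are shared: IL24 signals through receptors that contain IL20RB, IL23 is IL23A joined to the IL12B chain, and IL7R forms the IL7 receptor with IL2RG and the receptor for thymic stromal lymphopoietin (TSLP) with CRLF2. In glioblastoma, IL13RA2 is known as a cell surface receptor for IL13 that is abundant in many tumours, while IL4R and IL13RA1 form the signalling receptor for IL4 and IL13.

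All signals below are the normalized array signal divided by the 75th percentile of the probes on the same array. The signal-to-noise ratio (S/N) tells a measured signal from background, and probes were kept if it exceeded 3 on both mock arrays or on both knockdown arrays (64.6% of all probes). Signals of different probes were not set against each other, because a brighter probe need not mean more RNA. Between 63.5% and 68.9% of the probes had S/N over 3 on an array, arrays of 1 group correlated at 0.986 (mock) and 0.991 (knockdown), and arrays of different groups correlated at 0.977 to 0.984. *SOX2* itself, on 1 probe, was at 0.467 and 0.701 in mock cells and at 0.209 and 0.149 after knockdown, a ratio of 0.307. Its log2 difference was −1.69 (SE 0.28), with an adjusted p of 0.117 from limma over all kept probes. Its S/N was 5.17 and 13.56 in mock and 3.17 and 3.06 in knockdown cells, so the knockdown signals were barely over the limit of 3. The treatment field of the labels names the colon line sw620, whereas the other fields name LN229. Of 10 glioma or mesenchymal markers 9 had S/N over 3 on all 4 arrays, against 1 (*VIL1*) of 9 colon epithelial genes, and 3 of the colon genes (*CDH1*, *KRT20* and *CDH17*) were at background on every array. *LGALS4* and *CDX2* had S/N over 3 on both mock arrays and on neither knockdown array, *CDX1* on 1 array of each group, and *EPCAM* and *CEACAM5* on 1 array each.

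Among the 6 member probes that were kept, those of *IL24*, *IL23A* and *IL7R* were more than 2-fold higher after *SOX2* knockdown and none was more than 2-fold lower. The probes of *IL24* and *IL7R* were kept through their knockdown arrays only, and that of *IL23A* passed in both groups. Over all 21256 kept probes, 1.57% were more than 2-fold higher and 1.04% more than 2-fold lower, and since this contrast chose the members, their count is not read against those shares. The knockdown arrays lay above both mock arrays for the same 3 probes, below both for *IL15* and *IL13RA1*, and overlapped them for *IL12A*. The groups did not overlap for 47% of all kept probes (21.2% with knockdown above and 25.8% with knockdown below). Of the other member probes, both of *IL32* and those of *IL15RA*, *IL4R* and *IL13RA2* were not kept.

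**Figure D1:**
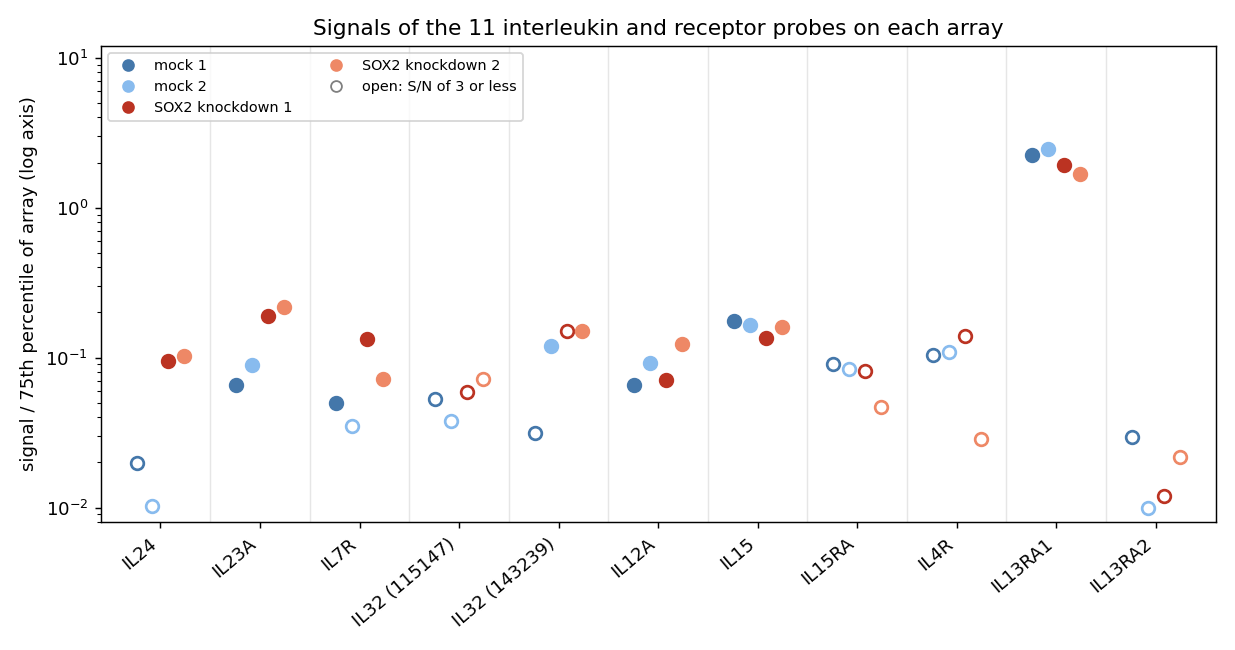
Normalized signal divided by the array's 75th percentile (log axis) for each of the 11 member probes on the 2 mock (blue) and 2 SOX2 knockdown (red) arrays; each point is 1 array and open points have S/N of 3 or less. IL24, IL23A and IL7R show both knockdown arrays above both mock arrays, and IL13RA1 shows them below (1.92 and 1.68 against 2.24 and 2.48).

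**Figure D2:**
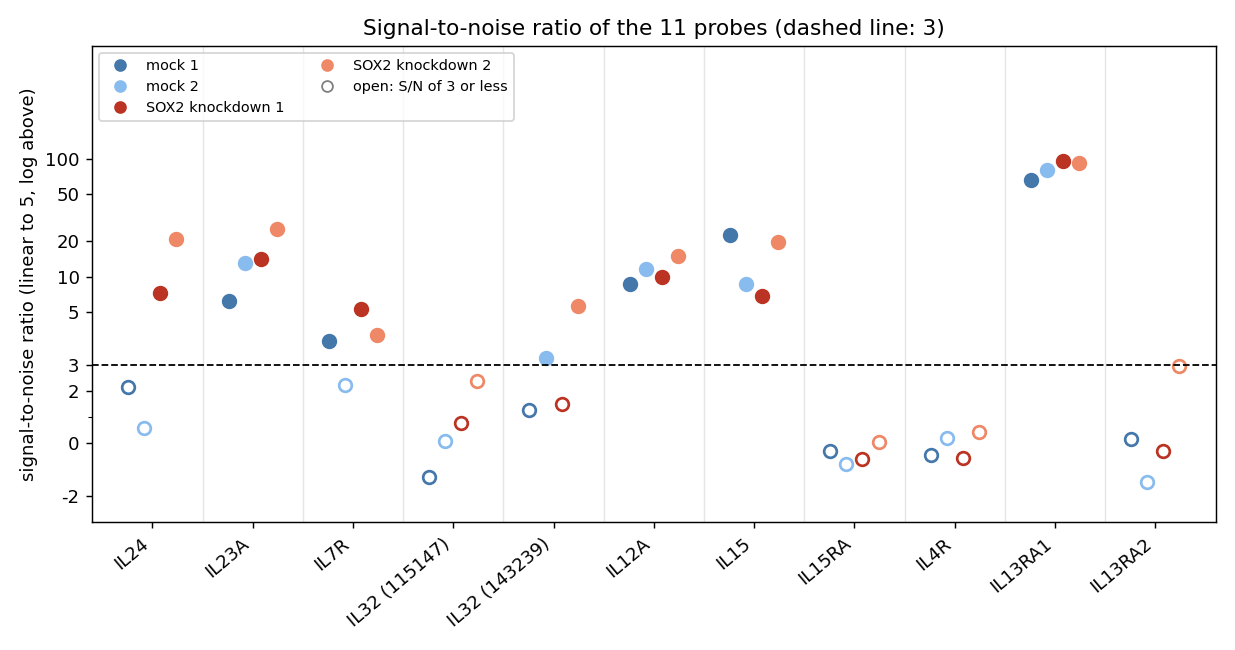
Signal-to-noise ratio of the same 11 probes on each array, on an axis that is linear to 5 and logarithmic above, with a dashed line at 3. IL24 crosses the line between mock (2.16 and 0.57) and knockdown (7.21 and 20.99), while IL15RA and IL4R stay below 1 on all 4 arrays.

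*IL24*, a cytokine of the IL10 family studied for its effects on tumour cell survival, differed most. Its probe (gene ID hCG22199.2) gave 0.0198 and 0.0102 in mock cells and 0.0950 and 0.102 after knockdown. Both knockdown arrays were well above both mock arrays and lay close to each other. The S/N was 2.16 and 0.57 in mock and 7.21 and 20.99 in knockdown cells, so *IL24* was measured above background only after *SOX2* knockdown. The same pattern, S/N over 3 on both knockdown arrays and on neither mock array, was found for 0.775% of all probes, and the reverse for 0.493%.

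The mean *IL24* signal in knockdown cells was 0.0987 ± 0.00520 (SD, n = 2). The 2 mock values averaged 0.0150 ± 0.00681 (SD, n = 2), which gives a nominal ratio of 6.58. The second mock value, at S/N 0.57, equals its own error and is not a level, so this mock mean and ratio are not measured ones. The mean log2 signals, taken as deposited, differed by 2.80, and by 0.98 with a floor of 0.05. The mock signal was not well above background on either array, so the fold has only a lower bound. With the mock signal raised to what this probe would need for S/N 3 (0.0275 and 0.0305), *IL24* was at least 3.40-fold higher. The deposited signals have 2 decimals, and 1 step of the last digit is 8.33% and 14.3% of the mock values (0.12 and 0.07 before scaling).

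*IL23A* encodes the chain that makes IL23 distinct from IL12. Its probe (hCG25005.2) gave 0.0660 and 0.0887 in mock cells and 0.188 and 0.216 after knockdown. The groups were apart by more than the replicates of either group, and S/N was between 6.2 and 25.46 on all 4 arrays, so *IL23A* was measured in mock cells as well. Its mean was 0.202 ± 0.0198 (SD, n = 2) in knockdown cells and 0.0773 ± 0.0160 (SD, n = 2) in mock cells. The ratio of these means was 2.62, and the difference of the mean log2 signals was 1.40 (SE 0.20). Any 1 knockdown array over any 1 mock array gave between 2.13 and 3.28. Over the 4 arrays, the probes whose centred log2 signals were closest to those of *IL23A*, of 15879 compared, were those of *CYB5R2*, *EEF1A2* and *ABCC3*, with root-mean-square differences of 0.0716, 0.0869 and 0.0945.

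*IL7R*, the receptor chain shared by IL7 and TSLP and best known from lymphocyte development, was the least even of the 3. Its probe (hCG37576.2) gave 0.0495 and 0.0349 in mock cells and 0.134 and 0.0721 after knockdown. The first knockdown array was 1.85 times the second, and the second lay nearer to the mock arrays. The S/N was 3.91 and 2.22 in mock and 5.29 and 4.12 in knockdown cells, so 1 of the 2 mock arrays did not measure it above background. The mean went from 0.0422 ± 0.0103 (SD, n = 2) to 0.103 ± 0.0434 (SD, n = 2), a ratio of 2.44 with log2 difference 1.24 (SE 0.36). Single pairs of arrays gave between 1.46 and 3.83, and without the first knockdown array the log2 difference was 0.80, under 2-fold.

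**Figure D3:**
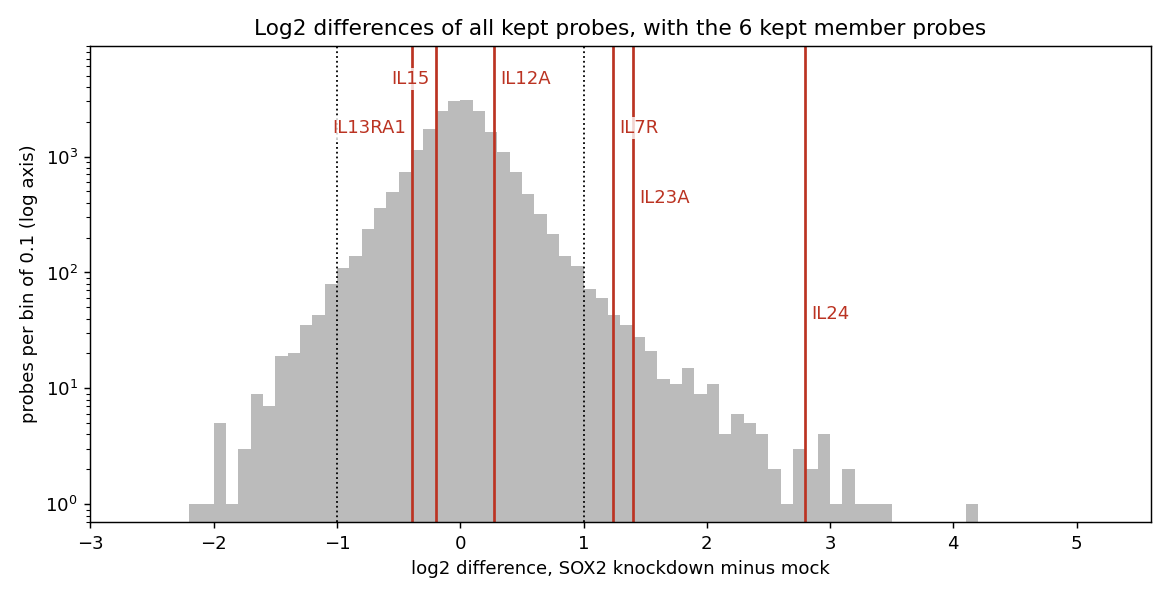
Number of kept probes (log axis) per bin of 0.1 in log2 difference, SOX2 knockdown minus mock, in grey, with the 6 kept member probes as red lines and 2-fold as dotted lines. IL24 lies at 2.80, drawn from deposited mock signals that were not above background. IL23A and IL7R lie at 1.40 and 1.24 outside the dotted line, and IL12A, IL15 and IL13RA1 inside the central mass.

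The bases upstream of these 3 genes are shown because their probes were the ones past 2-fold. They are the 250 bases before the annotated start in RefSeq, on build GRCh38.p14 and the forward strand in each case, and the arrays do not measure binding there. Capitals mark matches, on either strand, to 3 motifs: AACAAT, a SOX core, TGANTCA, bound by AP-1, and the kappaB motif bound by NF-kappaB. The start of *IL24* lies after chr1:206897193-206897442, that of *IL23A* after chr12:56338634-56338883 and that of *IL7R* after chr5:35856641-35856890.
IL24: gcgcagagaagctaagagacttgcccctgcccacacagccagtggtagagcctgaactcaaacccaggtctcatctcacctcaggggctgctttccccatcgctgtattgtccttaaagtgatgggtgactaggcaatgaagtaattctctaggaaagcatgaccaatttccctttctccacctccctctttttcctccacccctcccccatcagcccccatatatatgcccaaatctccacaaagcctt
IL23A: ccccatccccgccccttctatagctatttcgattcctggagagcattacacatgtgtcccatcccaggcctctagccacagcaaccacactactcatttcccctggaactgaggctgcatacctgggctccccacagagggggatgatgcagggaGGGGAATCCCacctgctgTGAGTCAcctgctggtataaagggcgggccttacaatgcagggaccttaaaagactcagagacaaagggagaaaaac
IL7R: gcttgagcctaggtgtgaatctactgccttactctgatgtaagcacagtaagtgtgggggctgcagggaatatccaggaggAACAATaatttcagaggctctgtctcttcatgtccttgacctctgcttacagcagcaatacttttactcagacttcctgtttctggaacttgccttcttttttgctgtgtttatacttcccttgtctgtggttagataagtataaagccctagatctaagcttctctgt
The *IL24* window held no match to any of the 3 motifs. The *IL23A* window held 1 kappaB match, beginning 95 bases before the start, and 1 AP-1 match, beginning 77 bases before it, which do not overlap. The *IL7R* window held 1 SOX core match, beginning 169 bases before the start. Of 35116 RefSeq promoter windows of the same length, 8.98% held the SOX core, 6.57% the AP-1 motif and 9.96% the kappaB motif. A match is a description of the letters and not evidence of a bound site.

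Promoter windows were held for 8 of the 10 genes, at 12 start sites in all, and not for *IL15* and *IL13RA2*. The *IL12A* window had 1 kappaB match and the *IL13RA1* window had none of the 3 motifs. For *IL32*, 1 of 2 start sites had 2 overlapping kappaB matches, and the *IL4R* window had 2 separate ones. Of the 4 *IL15RA* starts, 3 had an AP-1 match, 1 of these also had 2 overlapping kappaB matches, and another of them had a SOX core match. The windows of 2 of these 3 starts overlap, and their AP-1 match is the same site.

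*IL32* encodes a pro-inflammatory cytokine without close relatives, and both of its probes (hCG15615.3) failed the S/N filter. Probe 143239 gave 0.0314 and 0.119 in mock cells and 0.151 and 0.149 after knockdown, with S/N of 1.26 and 3.24 in mock and 1.51 and 5.59 in knockdown cells. The second array of each group was above background and the first was not, and the mock arrays differed 3.80-fold. The ratio of 2.0 therefore rests largely on the first mock array, and without it the log2 difference was 0.33 in place of 1.30. Probe 115147 had S/N between −1.3 and 2.37 on all 4 arrays and gave no measured level.

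*IL12A*, the chain that joins IL12B in IL12 and EBI3 in IL35, was measured on every array with S/N from 8.66 to 14.85. Its probe (hCG1685939.3) gave 0.0660 and 0.0916 in mock cells and 0.0712 and 0.124 after knockdown. The second array was the higher one in both groups, and the groups overlapped. The ratio was 1.24 and the log2 difference 0.27 (SE 0.34), and leaving out 1 array at a time gave −0.13 to 0.68.

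*IL15*, a cytokine that sustains natural killer and memory T cells, was measured on every array (S/N 6.88 to 22.4). Its probe (hCG1810874.5) gave 0.175 and 0.164 in mock cells and 0.135 and 0.161 after knockdown. Knockdown lay below mock, by little on the second array of each group. The mean was 0.170 ± 0.00755 (SD, n = 2) in mock and 0.148 ± 0.0184 (SD, n = 2) in knockdown cells, a ratio of 0.873 with log2 difference −0.20 (SE 0.15). *IL15RA* (hCG24068.5), which presents IL15 to neighbouring cells, was not above background on any array, with S/N from −0.78 to 0.06.

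Of the IL4 and IL13 receptor chains among the members, 1 was measured. *IL13RA1* (hCG1741666.2), the chain that binds IL13 and pairs with IL4R, gave 2.24 and 2.48 in mock cells and 1.92 and 1.68 after knockdown, with S/N from 65.25 to 95.12. Knockdown was below mock on every array, and the gap between groups was larger than the gap within either. The mean was 2.36 ± 0.172 (SD, n = 2) in mock and 1.80 ± 0.169 (SD, n = 2) in knockdown cells, a ratio of 0.765 with log2 difference −0.39 (SE 0.15). The probe carried a scanner flag of 64, whose meaning is not given in the sources used here, on the second knockdown array. Of all kept probes, 11.3% had a smaller log2 difference.

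*IL4R* (hCG1984906), the chain common to both IL4 receptors, was at background on all 4 arrays, with S/N from −0.55 to 0.45. *IL13RA2* (hCG20596.2), which binds IL13 without the usual signalling tail, had S/N of 0.17 and −1.46 in mock and −0.31 and 2.93 in knockdown cells. It was at background on 3 arrays and just under the limit of 3 on the other. For *IL15RA*, *IL4R* and *IL13RA2* no level and no ratio is given, and each was represented by 1 probe. The S/N was 3 or less on all 4 arrays for 26.1% of all probes, and for 4 of the 11 member probes. At the other end, 4 member probes (*IL23A*, *IL12A*, *IL15* and *IL13RA1*) had S/N over 3 on all 4 arrays, as had 59.2% of all probes.

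Under alternative settings, *IL23A* kept a ratio over 2 in each one except background correction by normexp with offset 50, where its log2 difference was 0.28. *IL24* under normexp gave 1.99. With a floor of 0.05, which lies above both mock signals of *IL24*, its log2 difference was 0.98. *IL7R* under normexp gave 0.15. A filter that asked for S/N over 3 on all 4 arrays kept 1 of the 3, *IL23A*.

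**Figure D4:**
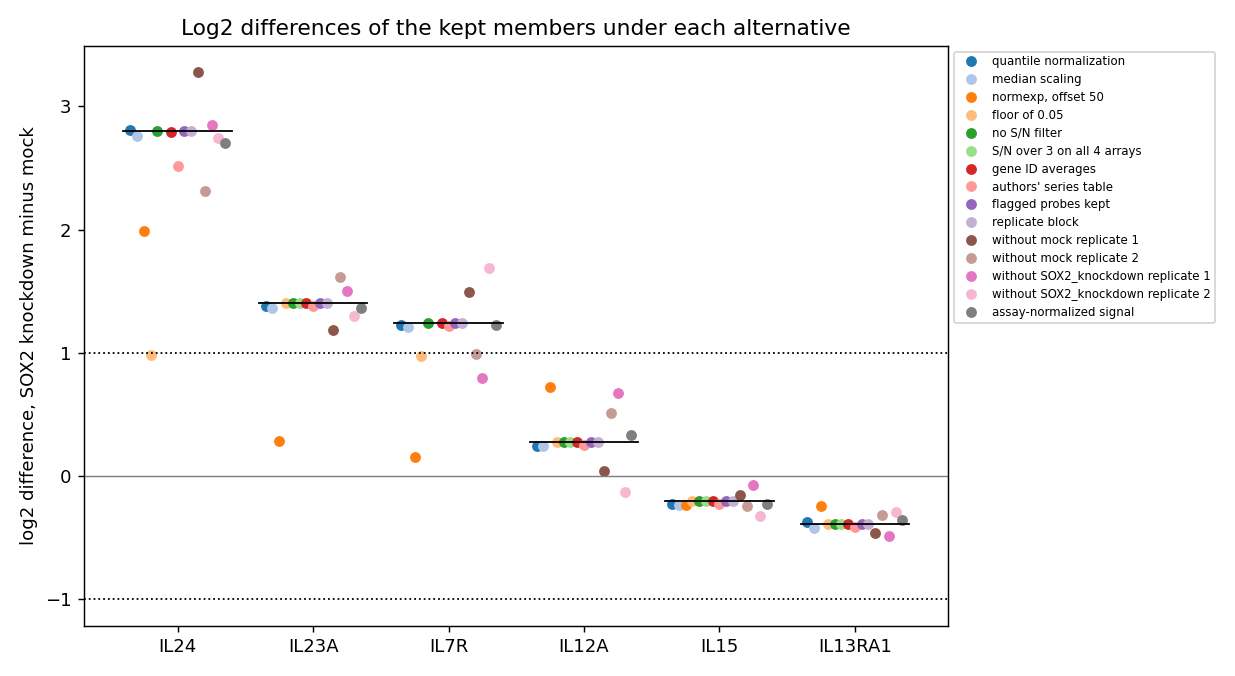
Log2 difference, SOX2 knockdown minus mock, of the 6 kept member probes under each alternative setting (coloured points, in the order of the legend) with the value of the main setting as a black line and 2-fold as dotted lines. The points of IL24 stay above 0 (lowest 0.98, with a floor of 0.05), and those of IL12A fall on both sides of 0.

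The partners of these proteins were examined next: 15 genes whose products form ligand or receptor complexes with the members, on 20 probes, of which 10 probes of 9 genes were kept. No partner probe had an adjusted p under 0.05 from limma (2 higher probes had an unadjusted p under 0.05), and none of the 21256 kept probes did (241 probes, 1.13%, were under 0.1, and 17.1% had an unadjusted p under 0.05). Over 2-fold, 2 partner probes (20%) were higher, probe 218017 of *TSLP* and probe 172625 of *IL20RB*, and 0 were lower. Over all kept probes these shares were 1.57% and 1.04%. With median scaling, both partner probes passed 0.05 (limma), at adjusted p of 1.53e-21 and 0.0215, and with the authors' table at 1.16e-21 and 0.0213. Their log2 differences were no larger there: 2.97 and 2.99 for *TSLP*, against 3.01, and 0.985 and 0.996 for *IL20RB*, against 1.02. The p-values fell without a larger difference, so they are not read as support for either probe, and why they fell was not tested. The median log2 difference of the kept partner probes was 0.10, against −0.00119 for all kept probes.

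*TSLP*, the cytokine that binds IL7R together with CRLF2, has 2 probes that went apart. Probe 218017 gave 0.0611 and 0.0465 in mock cells and 0.465 and 0.396 after knockdown, with S/N over 3 on all 4. Knockdown was far above mock on this probe, with a ratio of 8.0, log2 difference 3.01 (SE 0.20) and adjusted p of 0.0640 (limma). Probe 151770 gave 0.965 and 1.39 in mock and 0.917 and 0.871 in knockdown cells, a ratio of 0.759 with adjusted p of 0.483. The average of both probes, as the study's methods combine probes of 1 gene, had a ratio of 1.08, so the higher signal of the first probe does not appear in it. The scanner files do not give the transcripts each probe reads.

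*IL20RB*, the chain shared by the receptors of IL24, is listed on the array under its older symbol *FNDC6*. Its probe 172625 gave 0.234 and 0.219 in mock cells and 0.473 and 0.446 after knockdown. The replicates were close and the groups apart, with a ratio of 2.03, log2 difference 1.02 (SE 0.13) and adjusted p of 0.0964. The first mock array had S/N of 2.28 and the other 3 arrays 3.43 to 10.34, so this probe was kept through its knockdown arrays only. Its probe 220251 had S/N of at most 1.98, and the average of both probes had a ratio of 1.93, under 2-fold. Of the other IL24 receptor chains, *IL22RA1* had a ratio of 0.759 (adjusted p 0.433) and *IL20RA* was at background on all 4 arrays.

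The chains that complete IL23, IL12 and IL35 were not measured above background in these cells. *IL12B*, *EBI3* and the receptor chain *IL23R* had S/N of 3 or less on every array, and so had *IL13* and *IL2RB*. Of the receptor chains, *IL12RB1* had a ratio of 0.630 (adjusted p 0.317, limma) on probe 226063, with S/N of 2.45 on the first knockdown array. Its other probe had S/N of −0.72 to 0.6. *IL12RB2* had a ratio of 1.16. *IL7* (1.17), *CRLF2* (1.06), *IL2RG*, the chain common to the receptors of IL2, IL4, IL7 and IL15 (1.04), and *IL4* (0.984) were above background on all 4 arrays, and in each the groups overlapped. For *IL7* and *IL4* this holds for 1 of 2 probes: the second *IL7* probe had S/N of −1.16 to −0.72, and the second *IL4* probe was over 3 on 1 array (3.62). For these 4 genes and *IL12RB2*, the first mock and the second knockdown array were the higher ones, at 0.165 and 0.163 for *IL2RG* against 0.0916 and 0.104 on the others.

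**Figure D5:**
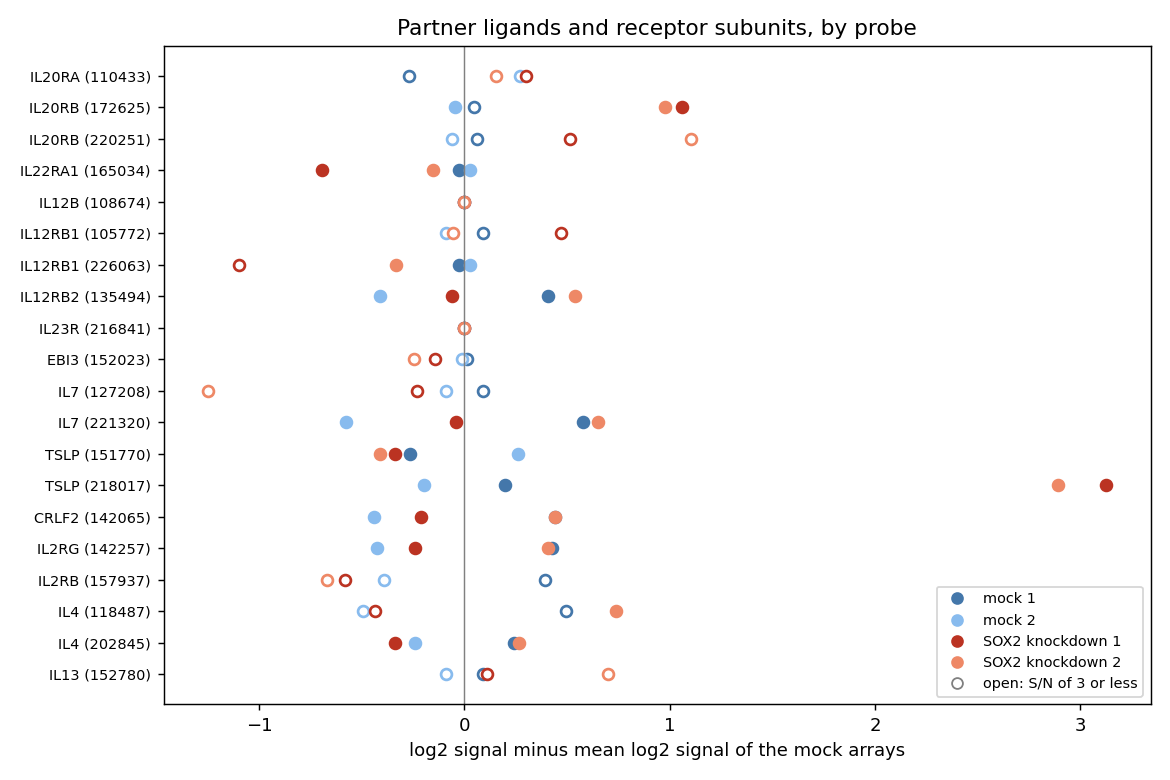
Log2 signal of each partner probe on each array relative to the mean log2 signal of the 2 mock arrays; each point is 1 array, open points have S/N of 3 or less, and IL12B and IL23R sit at 0 because every array is at the floor. TSLP probe 218017 lies near 3 on both knockdown arrays and its other probe below 0, and IL20RB probe 172625 lies near 1.

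The array held 78 genes with an interleukin or interleukin receptor symbol that are not members, partners such as *IL7* and *IL12RB1* included, on 97 probes, of which 45 were kept. Over 2-fold, 4 probes (8.89%) were higher and 0 lower, against 1.57% and 1.04% of all kept probes. An unadjusted p under 0.05 (limma) was found for 5 higher and 2 lower probes, and for 17.1% of all kept probes. The adjusted p was under 0.05 for 0 (limma), and 31 of the 78 genes had S/N of 3 or less on all 4 arrays. The median log2 difference of the kept probes was 0.04. Over 2-fold among ligands were *IL6*, a ligand of the gp130 family (10.3-fold, adjusted p 0.0582), the neutrophil chemokine *IL8* (2.26-fold, 0.0833) and *IL11*, a relative of *IL6* (2.02-fold, 0.102). The receptor probe over 2-fold was *IL1RL1*, the IL33 receptor, at 2.56-fold (adjusted p 0.139). It had S/N of 1.20 on the first mock array, so it was kept through its knockdown arrays only. *IL11RA* at 0.571 (adjusted p 0.122) and *IL6R* at 0.622 were the receptors with the lowest ratios among those named by the rule. A second *IL11RA* probe gave 1.22. Another probe with the *IL6R* symbol, under a different gene ID (hCG1997137), gave 0.991, with a scanner flag of 4 on all 4 arrays. The remaining genes named by the rule, the ligand *IL1F7* at 1.23 and the receptor *IL31RA* at 1.41, were under 2-fold.

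Of the JAK-STAT genes through which these receptors signal, 17 genes on 26 probes, 19 probes were kept and 0 were over 2-fold in either direction. *JAK1*, used by the IL7 and IL4 receptors, had a ratio of 0.940, *TYK2* of 0.843, and the 3 probes of *STAT3* between 0.930 and 1.05. *PIAS4*, an inhibitor of STAT proteins, had a ratio of 1.66 (adjusted p 0.262). *STAT6*, which carries the IL4 and IL13 signal, had S/N of 2.28 to 4.88 and was not kept, and *JAK3*, *STAT4* and *STAT5A* had S/N of 3 or less on every array. Of 15 genes known to respond to IL4 or IL13 through STAT6, 14 were on the array, 5 were kept and 0 were over 2-fold. The largest of these was *TGM2*, a transglutaminase, with a ratio of 0.611 (adjusted p 0.258). The median log2 difference was −0.07 for the JAK-STAT probes and −0.14 for the STAT6 response probes, and 0 probes of either list had an adjusted p under 0.05 (limma). At an unadjusted p under 0.05 (limma) there were 2 JAK-STAT probes and 1 STAT6 response probe, and 17.1% of all kept probes.

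Several members are genes that leukocytes use. Of 14 leukocyte marker genes, 4 had S/N over 3 on all 4 arrays, among them *CD14* and *NKG7*, and 6 had S/N of 3 or less on all 4, among them *CD3D*, *CD3G* and *CSF1R*. Their summed signal was 2.99 to 3.97 in mock and 3.28 to 4.43 in knockdown cells, and these ranges overlap. Most of it came from *NKG7*, at 2.86 and 1.98 in mock and 2.23 and 3.24 in knockdown cells. That of the glioma or mesenchymal list was 195 to 244 in mock and 177 to 191 in knockdown cells, which do not overlap. Most of it came from *SPARC*, which carried a scanner flag on every array, *VIM* and *S100B*. That of the colon list was 0.334 to 0.360 and 0.245 to 0.379, which overlap. A sum follows its brightest probes and includes probes at background, so the lists are not compared with each other. The part of such differences in the results above was not tested. In RNA of whole cultures, more cells that express a gene and more RNA per cell cannot be told apart.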

How the data were processed

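Total RNA of LN229 cells transfected with control siRNA or siRNA against *SOX2* was hybridised to 1-colour Applied Biosystems arrays, 2 per group. Groups came from the source names of the labels. The deposited scanner files hold, per the file headers, a normalized signal (a linear intensity after the authors' scanner software, whose version is not given in the sources used here) and an S/N score for 33096 gene probes. Flags (a coded number, unit not stated) were taken from the deposited files, and 210 probes with a flag of 5000 or more were left out, as were control features. The authors also deposited a table of ratios per probe, used as an alternative. Where S/N was 1 or less, the deposited signal equalled its own error, so it was not read as a level.

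Signals were divided by the array's 75th percentile (6.06 and 6.88 in mock, 6.74 and 5.96 in knockdown) and floored at 0.01. Probes with S/N over 3 on both arrays of a group were kept (21256 of 32886, 64.6%). Ratios are of replicate means, with 2-fold as the limit the study's methods use. Log2 signals were fitted with limma 3.58.1 in R 4.3.3, with Benjamini-Hochberg adjustment over all kept probes and a limit of 0.05, and the code was tested on simulated data. The number of arrays limits the precision. Single probes were analysed, whereas the study averaged probes of a gene.

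The members and the gene lists were chosen with earlier results of these data known. Beside the members, up to 4 genes of each list with the largest log2 difference on a probe with S/N over 3 on all 4 arrays are named, with all partners, *SOX2* and the 3 probes most like the member with the largest difference at that S/N. *IL1RL1*, marker genes, *JAK1*, *STAT3* and the neighbours of members were named outside this rule, after their values were seen. Some genes of the lists are not reported here by name. Symbols were matched through RefSeq synonyms, and promoters came from RefSeq (GRCh38.p14). The replicate numbers did not pair the arrays (correlation of the deviations of same-numbered arrays −0.48). Alternatives covered scaling, background, floor, filters, limits, the deposited ratio table, a replicate block and each array left out.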

Additional observations from a re-analysis of the deposited data

How the results depend on the processing

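With 2 arrays per group, SDs rest on 2 values, and probes at S/N of 3 or less give no level. No result changed direction past its limit. The 554 probes past 2-fold became 2234 at 1.5-fold, 119 at 3-fold, 235 with normexp, 363 with a floor of 0.05, 302 with S/N over 3 on all 4 arrays and 1373 without that filter. They were 1192 and 868 without the first and second mock array and 1135 and 782 without the first and second knockdown array. The 0 probes passing limma became 241 at an adjusted p of 0.1, 826 with median scaling, 758 with the authors' table, 5 with S/N over 3 on all 4 arrays and 287 with a variance trend, and stayed 0 with any array left out. Median scaling and the authors' table had fewer probes at an unadjusted p under 0.05 (2548 and 2506, against 3626 in the main setting). The cause was not tested. The 3 member probes past 2-fold became 1 at 3-fold, with normexp (*IL24* in both) and where S/N had to exceed 3 on every array (*IL23A*). They became 2 with a floor of 0.05, which lost *IL24*. With an array left out they were 2 to 3 (2 without the first knockdown array, which lost *IL7R*). The 4 other interleukin probes, all higher, became 7 at 1.5-fold (4 higher, the rest lower), 1 at 3-fold and 2 with normexp. Without the filter they became 9 (4 higher, the rest lower). With an array left out they were 4 to 6, not all of them higher without the second mock or the second knockdown array. *IL20RB* probe 172625 was at 1.35-fold with normexp and 1.99-fold with median scaling, where it and *TSLP* probe 218017 passed limma, as with the authors' table. The same *IL20RB* probe was at 1.96-fold without the second mock array and 1.97-fold without the first knockdown array. The average of both *IL20RB* probes was at 1.93-fold. With the replicate number as a block, 578 probes were past 2-fold, 3 of them members, and 0 passed limma (1905 at an unadjusted p of 0.05, against 3626). The deviations pointed to crossed numbers, and the crossed pairing as a block, chosen after seeing the data like the assay-normalized signal, gave 0 probes at 0.05 and 2105 at 0.1.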

Other observations

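The coding genes next to the 3 members past 2-fold, 3 on each side in RefSeq order, were read after the members' values were known. *IL24* lies among other genes of the IL10 family. Of its 6 neighbours 2 were kept, *IL10* at a ratio of 1.05 and *IL20* at 1.01, and the 4 others were not kept. Of the 6 neighbours of *IL23A*, 5 were kept on 7 probes, with ratios from 0.809 to 2.08. The highest was 1 probe of *CNPY2*, whose second probe gave 0.933. The higher *CNPY2* probe had S/N of 1.87 on the second mock array, so it was kept through its knockdown arrays only. For *IL7R*, 3 of 5 neighbours on the array were kept, with ratios from 0.726 to 1.06. The lowest, *UGT3A2*, had S/N of 0.47 on the second knockdown array, so its ratio is not a measured one.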
